A study of Homo sapiens with 24 samples.

Results

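The genes examined were 36 genes of glucose uptake, glycolysis and the pentose phosphate pathway, of 19775 genes that the arrays named by a single symbol. They were taken from a list of names that was proposed with earlier results of these data known. Each was read from its probe set of highest mean signal over all 24 arrays. The members comprised 5 glucose transporters, 4 kinases of glucose, 4 genes of the isomerase and phosphofructokinase steps and 4 genes that set fructose 2,6-bisphosphate. A further 10 encoded the enzymes from aldolase to pyruvate kinase, 2 encoded lactate dehydrogenase subunits, and 7 belonged to the oxidative (3) and non-oxidative (4) arms of the pentose phosphate pathway. Together they had 84 of the 54675 probe sets. All 36 passed the filter on low signal and were among 14141 genes tested.

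The samples were RNA of HS578T, SUM149PT and SUM159PT, all established human lines from breast cancers, and formed 8 groups of 3 arrays. In 6 groups each line received either AZD3965, which blocks MCT1, a membrane carrier of lactate and pyruvate, or its vehicle DMSO for 24 hours. In the other 2 groups SUM149PT cells carried a lentiviral shRNA, either scrambled or directed at MCT1, and both were kept in puromycin at 2 µg/ml for 5 days before RNA was taken. The study asked whether MCT1 contributes to the Warburg phenotype of glycolytic breast tumours. HS578T was grown in DMEM and both SUM lines in F12 supplemented with insulin, hydrocortisone and EGF, so line and medium cannot be told apart. The labels give no inhibitor dose and no number of hairpin sequences. Whether the 3 arrays of a group stand for separate cultures is not stated either, and the p-values measure only the spread between arrays, which may be technical.

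Cells take up glucose through facilitative transporters of the SLC2A family and trap it by phosphorylation, mostly with hexokinases. Phosphofructokinase commits the sugar to glycolysis under control of fructose 2,6-bisphosphate, a signal metabolite made and removed by the bifunctional PFKFB enzymes. The lower part of the pathway runs from aldolase to pyruvate kinase, and lactate dehydrogenase then interconverts pyruvate and lactate, the substrates that MCT1 carries across the plasma membrane. Glucose 6-phosphate can instead enter the pentose phosphate pathway, whose oxidative arm yields NADPH and whose non-oxidative arm exchanges sugars with glycolysis. High glucose uptake with lactate release in the presence of oxygen, the Warburg effect, is a known trait of many breast cancer cells.

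Signals are linear array units, scaled by the submitters to a trimmed mean of 499.9 on every array. Array medians lay between 49.2 and 67.4, and the mean correlation within groups was 0.974 to 0.986 per array. Scramble shRNA array 3 stood apart in its control probe sets, with a 3' to 5' signal ratio of 2.36 for GAPDH against 0.798 to 0.948 elsewhere, and of 53.8 for actin against 1.20 to 2.14. At the bright end, the 99.9th percentile reached 39630 and 38560 units on AZD3965 arrays 2 and 3 of SUM149PT and 39090 on AZD3965 array 3 of SUM159PT, against 25080 to 32520 on the other 21 arrays. SUM149PT carried the epithelial markers EPCAM, at 14970 ± 551 units, and CDH1, at 8772 ± 596, under DMSO (SD, n = 3). In HS578T and SUM159PT both were near background, from 3.53 to 54.6 units. Those 2 lines had the mesenchymal factor ZEB1 at 4895 ± 34.7 and 3763 ± 26.3 units, against 86.1 ± 16.8 in SUM149PT. Other listed markers of these types, keratins and VIM among them, are not given here. The leukocyte gene PTPRC and the adipocyte gene ADIPOQ stood between 2.79 and 39.0 units under DMSO in every line. Differences are on the log2(signal + 16) scale with their standard error (SE), which understates changes of dim genes. A gene was called at a Benjamini-Hochberg adjusted p under 0.05 in limma over all genes tested.

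The first comparison asked how these genes responded to AZD3965 in HS578T. The transporter gene SLC2A1 and the enolase gene ENO2 rose, and most other members lay above 0 without passing the test. SLC2A1, which encodes the widely expressed basal glucose transporter GLUT1, gave 1232, 1222 and 1110 units on the DMSO arrays and 1487, 1709 and 1654 units on the AZD3965 arrays. All treated arrays were above all controls, and the log2 fold change was 0.44 ± 0.07 (limma adjusted p = 0.00641). ENO2, the enolase isoform named for neurons, gave 431, 548 and 413 units with DMSO and 769, 746 and 774 with AZD3965. These arrays also did not overlap, and the change was 0.71 ± 0.15 (adjusted p = 0.0356). The 2 called members of 36 stood against 0.304% of all genes tested (0.212% called higher and 0.0919% lower).

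The hexokinase and phosphofructokinase steps had the next largest values. HK2, the inducible hexokinase bound to mitochondria, gave 1143, 1668 and 1470 units with DMSO and 2421, 1848 and 2278 with AZD3965. The treated arrays were all higher, at 0.62 ± 0.14 on the log2 scale, but the gene did not pass (adjusted p = 0.0649). The 3 phosphofructokinase subunit genes PFKL, PFKM and PFKP measured 0.38 ± 0.10, 0.31 ± 0.09 and 0.28 ± 0.09, with adjusted p from 0.155 to 0.278, and none of them overlapped with control. PFKFB3 and PFKFB4, whose enzymes make the activator of phosphofructokinase, measured 0.31 ± 0.11 (0.330) and 0.27 ± 0.19 (0.790). Lactate dehydrogenase hardly differed, at 0.05 ± 0.12 for LDHA and -0.01 ± 0.10 for LDHB (adjusted p = 0.969 and 0.998). The transketolase gene TKT of the pentose phosphate pathway measured 0.01 ± 0.11 (0.997).

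Members lay above 0 in 33 of 36 cases, against 6373 of 14141 genes, and their median change was 0.14 against -0.02 for all genes tested. Because the members were chosen with earlier results of these data known, this contrast is not independent evidence. The arrays did not overlap in 14 members that were higher (8.42% of all genes) and in 1, the transporter gene SLC2A6, that was lower (10.9%). Among roles, the largest median was that of the isomerase and phosphofructokinase genes, 0.29 over 4 genes, and the smallest that of lactate dehydrogenase, 0.02 over 2. The 34 members not called ran from -0.10 (SLC2A6) to 0.62 (HK2). Centring every array on its own median moved all genes to a median of 0.14 and the members to 0.30. That step shifts every gene by the same amount, so it could not change the difference between members and all genes. Under quantile normalization the medians of all genes and of the members were 0.003 and 0.18.

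The calls in HS578T rested on few arrays. ENO2 did not pass without DMSO arrays 1 or 3 or without AZD3965 arrays 1, 2 or 3 (adjusted p = 0.144, 0.149, 0.150, 0.0839 and 0.154), although its change stayed between 0.63 and 0.83 when single arrays were left out. SLC2A1 was lost only without DMSO array 3 (0.39, adjusted p = 0.0537) among those 6 fits, and with the mean of its probe sets it did not pass either (0.44, adjusted p = 0.0792), whereas HK2 passed without DMSO array 2 (0.73, adjusted p = 0.0408) and without AZD3965 array 2 (0.73, adjusted p = 0.0410).

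**Figure D1:**
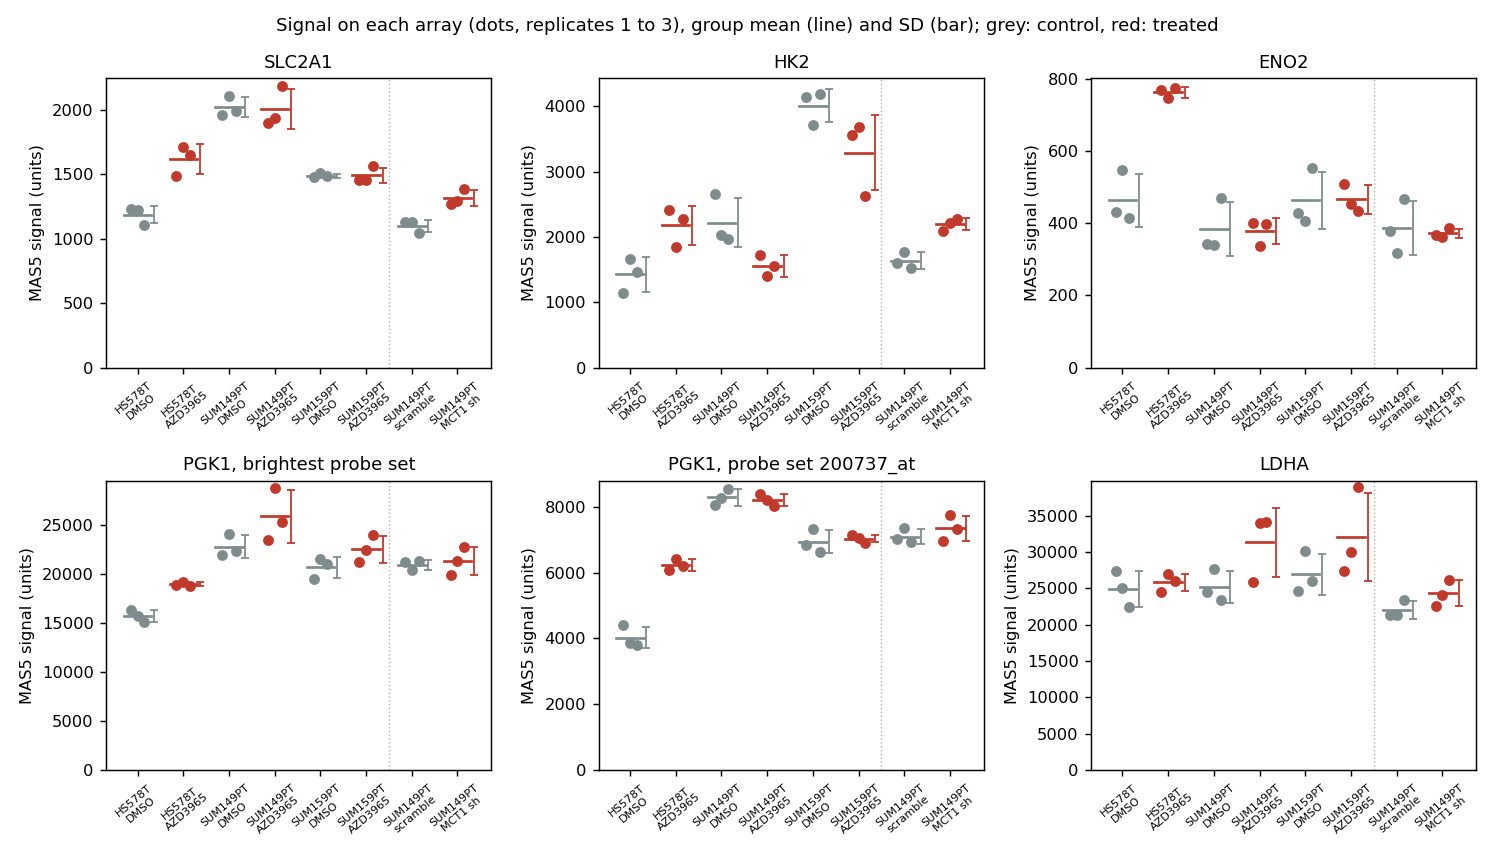
Signal of 5 members on every array (y axis, MAS5 units from 0; x axis, the 8 groups), with PGK1 drawn for 2 probe sets; dots are arrays 1 to 3, lines are group means, bars are SD, grey is control and red is treated. In HS578T the SLC2A1, ENO2, HK2 and PGK1 dots with AZD3965 lie above those with DMSO, while HK2 lies below its DMSO dots in SUM149PT and SUM159PT.

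Other probe sets of the members gave a check in the same arrays. PGK1 encodes phosphoglycerate kinase, the first ATP-forming step of glycolysis, and its brightest probe set measured 0.28 ± 0.07 without passing (adjusted p = 0.142). On that probe set the DMSO arrays gave 16280, 15690 and 15060 units and the AZD3965 arrays 18910, 19210 and 18780, with no overlap. Of its 5 other probe sets 3 passed when 27128 probe sets were tested singly. Probe set 200737_at went from 4023 ± 327 to 6239 ± 172 units (SD, n = 3), a change of 0.63 ± 0.06 (adjusted p = 9.4e-06). Probe set 227068_at went from 4039 ± 704 to 6392 ± 218 units (0.67 ± 0.13, adjusted p = 0.0218) and 217356_s_at from 7039 ± 281 to 9648 ± 634 (0.45 ± 0.09, adjusted p = 0.0353). All 3 were dimmer than the one used, and the dimmest PGK1 probe sets measured 0.16 ± 0.19 and 0.26 ± 0.20 without passing.

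HK2 did not behave alike across its probe sets. Against 0.62 for the brightest one, 222305_at measured 0.00 ± 0.18 and 239410_at measured -0.69 ± 0.15 (adjusted p = 1.00 and 0.0704), and the highest group mean of either was 522 units. The dim second probe set of SLC2A1, with a mean of 65.6 units, measured 0.43 ± 0.21 (adjusted p = 0.706), close in size to the bright one. Over the 38 other probe sets of members that were tested, 3 passed and all were of PGK1, against 0.192% of all probe sets. Several members, such as PGK1, GAPDH, LDHA and PGAM1, have processed pseudogenes, and how much each probe set read from such copies was not tested.

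**Figure D2:**
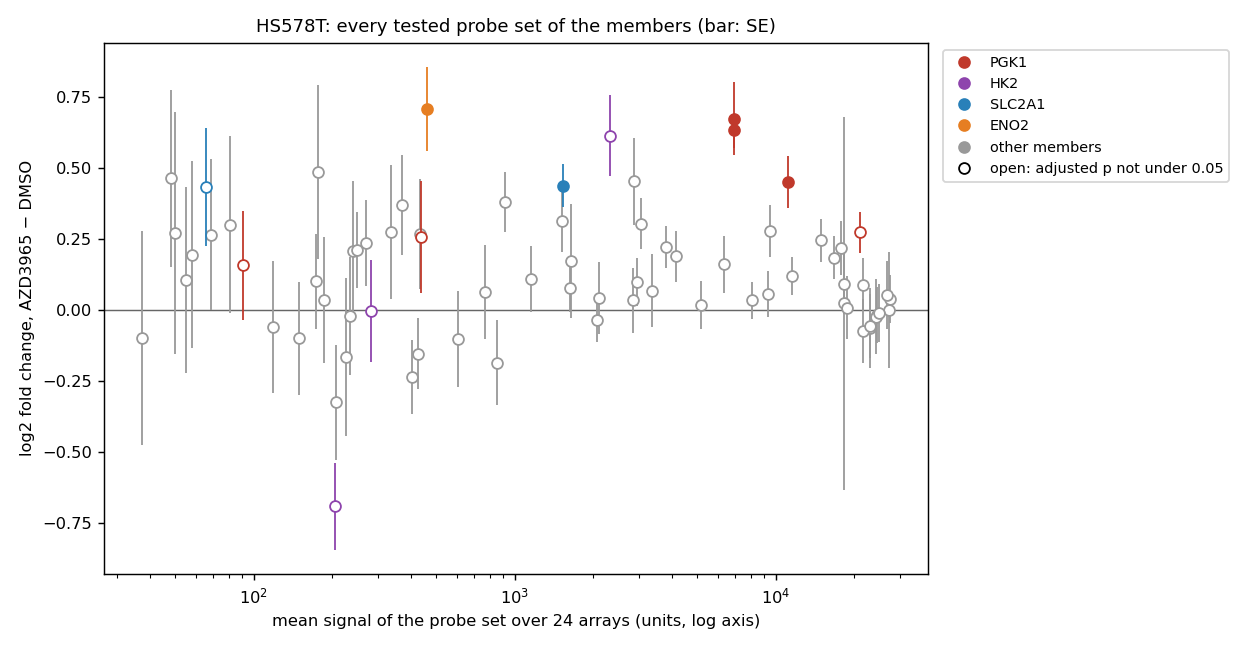
AZD3965 minus DMSO in HS578T for every tested probe set of the members (y axis, log2 fold change with SE; x axis, mean signal over 24 arrays on a log axis), filled where the adjusted p was under 0.05. The 3 filled red PGK1 points lie at 0.45 to 0.67 on the log2 scale above their brighter open neighbour at 0.28, and the 3 HK2 points spread from -0.69 to 0.62.

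The HS578T results turned on SLC2A1, HK2, PGK1 and ENO2, so these 4 genes were chosen here after their values were seen. All belong to the glycolytic set known to be induced in low oxygen. The sequences before their start sites are shown. They cover 250 bases upstream of the annotated start in RefSeq on GRCh38.p14, 5' to 3' on the gene's strand, at chr1:42958869-42959118 (minus) for SLC2A1, chr2:74833877-74834126 (plus) for HK2, chrX:78103998-78104247 (plus) for PGK1 and chr12:6914330-6914579 (plus) for ENO2. Capitals mark ACGTG on either strand, a form of the core letters of the hypoxia response element. The form GCGTG was neither marked nor counted. HK2 has 2 listed start sites, and the first is shown; the window of the other, chr2:74834920-74835169, holds 4 matches to ACGTG and 2 to CACGTG.
SLC2A1: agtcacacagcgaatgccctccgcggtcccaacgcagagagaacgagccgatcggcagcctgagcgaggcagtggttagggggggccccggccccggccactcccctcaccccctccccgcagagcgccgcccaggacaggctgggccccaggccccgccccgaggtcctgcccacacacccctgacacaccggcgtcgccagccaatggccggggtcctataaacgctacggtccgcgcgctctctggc
HK2: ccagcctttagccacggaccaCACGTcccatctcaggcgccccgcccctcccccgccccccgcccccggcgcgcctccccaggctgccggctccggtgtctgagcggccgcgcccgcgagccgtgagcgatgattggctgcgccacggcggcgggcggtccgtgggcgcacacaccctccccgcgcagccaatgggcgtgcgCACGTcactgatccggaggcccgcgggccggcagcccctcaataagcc
PGK1: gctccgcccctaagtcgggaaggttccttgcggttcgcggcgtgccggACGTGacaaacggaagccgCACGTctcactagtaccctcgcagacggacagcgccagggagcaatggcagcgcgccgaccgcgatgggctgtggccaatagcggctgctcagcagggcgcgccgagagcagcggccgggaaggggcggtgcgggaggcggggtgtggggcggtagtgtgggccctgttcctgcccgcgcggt
ENO2: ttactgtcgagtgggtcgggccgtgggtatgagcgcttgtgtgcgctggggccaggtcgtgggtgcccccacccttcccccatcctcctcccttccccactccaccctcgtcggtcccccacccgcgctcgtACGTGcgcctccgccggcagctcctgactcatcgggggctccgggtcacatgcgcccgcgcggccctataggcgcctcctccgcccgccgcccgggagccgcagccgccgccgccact
ACGTG occurred 2 times each in the HK2 and PGK1 windows shown, 1 time in that of ENO2 and 0 times in that of SLC2A1. Of 55 such windows from 34 matched members 19 held it (34.5%), against 18.5% of 35116 windows of all genes. The E-box CACGTG, which contains ACGTG, was in 6 member windows (10.9%) and in 6.34% of all. Members that hardly differed in HS578T also had ACGTG: the LDHA windows held it 5 and 0 times and the GAPDH window 2 times. Their log2 fold changes there were 0.05 and 0.00. Whether ACGTG goes with a response was not tested. These matches are descriptions of letters, and the arrays did not measure binding.

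In SUM149PT, AZD3965 left no member past the threshold, and HK2 pointed the other way. HK2 gave 2653, 2034 and 1976 units with DMSO and 1726, 1396 and 1558 with AZD3965. Every treated array was below every control array, at -0.50 ± 0.14 on the log2 scale (adjusted p = 0.143). Calls numbered 0 of 36 members, against 0.0283% of genes (0.0212% higher and 0.00707% lower), while 13 members and 2330 genes (16.5%) had an unadjusted limma p under 0.05. SLC2A1 measured -0.01 ± 0.07, PFKFB3 -0.19 ± 0.11, PFKFB4 0.13 ± 0.19 and ENO2 -0.01 ± 0.15, with adjusted p from 0.391 to 0.986. PGK1 measured 0.18 ± 0.07 (0.220) and TKT 0.26 ± 0.11 (0.245).

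The brightest members all lay above 0 in that line. LDHA, the muscle-type subunit of lactate dehydrogenase, gave 24480, 27640 and 23330 units with DMSO and 25870, 34040 and 34110 with AZD3965. Treated array 1 lay within the control range and arrays 2 and 3 above it, for a change of 0.31 ± 0.12 (adjusted p = 0.204). LDHB, the heart-type subunit, gave 24060, 28190 and 23500 units and then 26190, 34920 and 33030, with the same arrays high and a change of 0.31 ± 0.10 (0.165). The 8 members brighter than the 99th percentile of every array (ALDOA, TPI1, GAPDH, PGK1, ENO1, LDHA, LDHB and TKT) ran from 0.18 to 0.32. Arrays 2 and 3 were also those with the high 99.9th percentile. Bright members such as LDHA and LDHB lie near that percentile themselves, so it is not independent of their signal. Under quantile normalization, which gives all arrays the same bright end, these 8 ran from -0.08 to 0.14, with LDHA at 0.02 and LDHB at 0.00. The members' median was 0.13 against 0.04 for all genes, and 0.02 against 0.03 under quantile normalization.

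Leaving out AZD3965 array 1, whose bright end was like the controls, put 4 members past the threshold: HK2 (-0.57, adjusted p = 0.0394), ALDOA, LDHA (0.44, adjusted p = 0.0368) and LDHB (0.43, adjusted p = 0.0201). No other array changed the count from 0. Arrays did not overlap in 5 members that were higher (12.6% of genes) and 4 that were lower (8.34%), namely HK2, PFKFB2, PFKFB3 and the epimerase gene RPE.

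**Figure D3:**
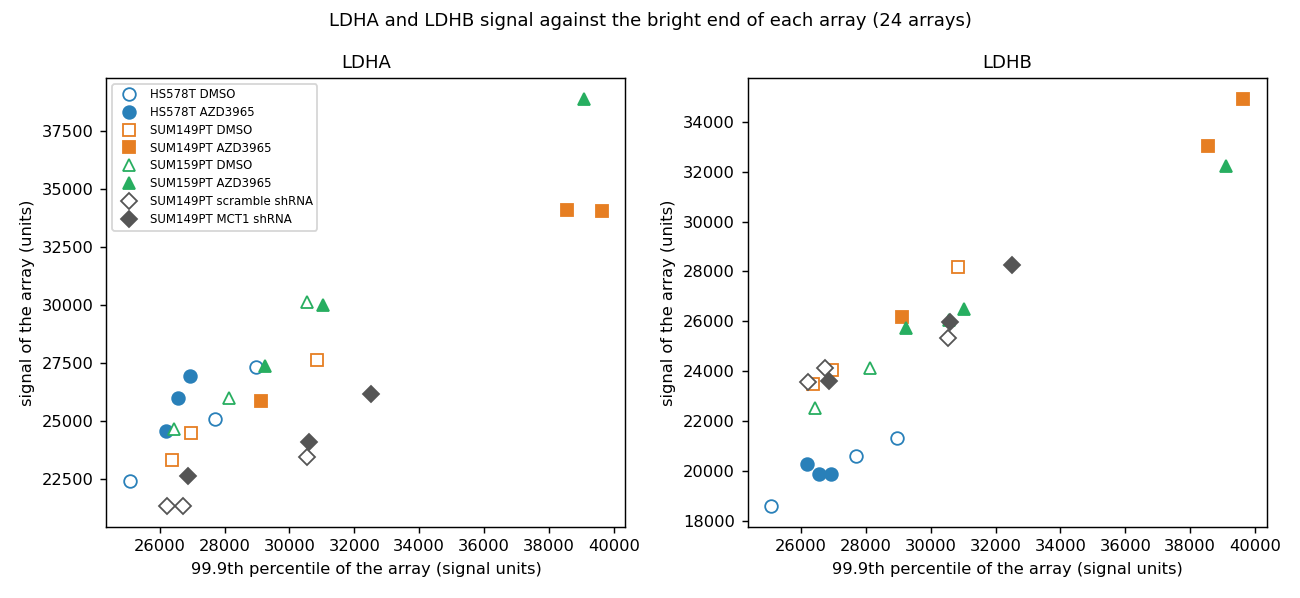
LDHA and LDHB signal (y axis, units) against the 99.9th percentile signal of the same array (x axis, units) for all 24 arrays; open symbols are controls and filled symbols treated groups. The 3 arrays at 38560 to 39630 units on the x axis, all AZD3965 arrays of SUM149PT or SUM159PT, hold the highest LDHA and LDHB signals. With means of 26570 and 24940 units, LDHA and LDHB themselves lie near that percentile, so the axes are not independent.

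SUM159PT showed 0 called members and 0 called genes (0% of 14141), with 5 members and 954 genes (6.75%) at an unadjusted limma p under 0.05. HK2 gave 4139, 3716 and 4185 units with DMSO and 3568, 3682 and 2626 with AZD3965. The treated arrays were again all lower, at -0.30 ± 0.14 (adjusted p = 0.728), mostly through array 3. SLC2A1 measured 0.00 ± 0.07, with 1479, 1508 and 1486 units under DMSO and 1454, 1459 and 1562 with AZD3965, so these arrays overlapped. PFKFB3 measured -0.05 ± 0.11, PFKFB4 0.11 ± 0.19, ENO2 0.02 ± 0.15, PGK1 0.12 ± 0.07 and TKT 0.12 ± 0.11. LDHA and LDHB measured 0.24 ± 0.12 and 0.21 ± 0.10 (adjusted p = 0.728 for both), and 0.03 and 0.00 under quantile normalization. Without AZD3965 array 3, the one with the bright upper end, they measured 0.10 and 0.11, and HK2 measured -0.14. The members' median was 0.09 against 0.00 for all genes, and both were 0.02 under quantile normalization. Arrays did not overlap in 1 member that was higher, the transaldolase gene TALDO1 (6.22% of genes), and in 3 that were lower, HK2, TIGAR and H6PD (6.35%).

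Averaged over the 3 lines with equal weight, AZD3965 gave 0 calls among the 36 members, against 0.0283% of genes, although 17 members and 2048 genes (14.5%) had an unadjusted limma p under 0.05. PGK1 was nearest, at 0.19 ± 0.04 (adjusted p = 0.0945), and its probe set 200737_at passed at 0.21 ± 0.04 (adjusted p = 0.0344). That average came from HS578T: in SUM149PT this probe set stood at 8291 ± 252 units with DMSO and 8212 ± 178 with AZD3965 (-0.01 ± 0.06), and in SUM159PT at 6934 ± 350 and 7034 ± 113 (0.02 ± 0.06; SD, n = 3). SLC2A1 averaged 0.14 ± 0.04, HK2 -0.06 ± 0.08, PFKFB3 0.03 ± 0.06, PFKFB4 0.17 ± 0.11 and ENO2 0.24 ± 0.09. LDHA averaged 0.20 ± 0.07, LDHB 0.17 ± 0.06 and TKT 0.13 ± 0.06. Without SUM149PT AZD3965 array 1 the count was 4 (PFKL, PFKP, ALDOA and PGK1, the last at 0.21 with adjusted p = 0.0347).

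The response of HK2 differed between lines. An F test of unequal AZD3965 effects called 1 of 36 members, HK2 (limma adjusted p = 0.0315), against 0.12% of all genes. Its effect in HS578T exceeded that in SUM149PT by 1.11 ± 0.20 (adjusted p = 0.0135) and that in SUM159PT by 0.91 ± 0.20 (adjusted p = 0.138). Both SUM lines were 0.20 ± 0.20 apart (adjusted p = 0.998). For SLC2A1 the F test gave an adjusted p of 0.106, for ENO2 0.272 and for the brightest PGK1 probe set 0.776, and none of these was called. PGK1 probe set 200737_at did differ in its response (F test adjusted p = 0.00176 over probe sets tested singly), the other PGK1 probe sets did not pass (0.149 to 0.851), and quantile normalization put the brightest one past the threshold. For LDHA, LDHB, TKT, PFKFB3 and PFKFB4 it lay between 0.359 and 0.964. The HK2 call was lost without any 1 of HS578T DMSO arrays 1 or 3, HS578T AZD3965 arrays 1 or 3, SUM149PT DMSO arrays 1 or 2, SUM149PT AZD3965 arrays 2 or 3 or SUM159PT DMSO array 1 (adjusted p from 0.0520 to 0.144). When HK2 was read as the mean over its probe sets, the adjusted p was 0.966.

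The shRNA comparison set SUM149PT with MCT1 shRNA against scramble shRNA. The glucose transporter genes SLC2A3 and SLC2A1 and the hexokinase gene HK2 were called higher on their brightest probe sets, and no other member was called. SLC2A3, which encodes the high-affinity transporter GLUT3, gave 58.4, 45.0 and 58.1 units with scramble and 76.3, 90.8 and 106 with MCT1 shRNA. The groups did not overlap at this low signal, and the change was 0.61 ± 0.16 (limma adjusted p = 0.00914). SLC2A1 gave 1127, 1127 and 1047 units with scramble and 1267, 1295 and 1385 with MCT1 shRNA. These were also apart, at 0.25 ± 0.07 (adjusted p = 0.0219). HK2 gave 1607, 1776 and 1527 units and then 2095, 2212 and 2279, again without overlap, at 0.42 ± 0.14 (adjusted p = 0.0447).

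These 3 of 36 members, all higher, compare with 14.9% of all genes called (7.22% higher and 7.64% lower). The members' median was 0.04 against 0.00 for all genes, and 23 of 36 against 6995 of 14141 were above 0. Median centring moved all genes to -0.12 and the members to -0.07, and 1 member, SLC2A6, was then called. Non-overlap was seen in 4 members that were higher, PKM being the fourth, and in 4 that were lower (14.6% and 15.2% of genes), namely SLC2A6, HK1, PFKM and RPIA.

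Of the members that did not pass, 33 in all, the values ran from -0.51 for SLC2A12 to 0.52 for GAPDH. GAPDH was read by the 5' control probe set and gave 24000, 24200 and 9753 units with scramble, so array 3, with the high 3' to 5' ratios, was far below the others; with MCT1 shRNA it gave 23560, 25860 and 27480. PFKFB3 measured -0.06 ± 0.11, PFKFB4 0.13 ± 0.19, ENO2 -0.04 ± 0.15 and PGK1 0.02 ± 0.07 (adjusted p from 0.726 to 0.895). LDHA measured 0.14 ± 0.12, LDHB 0.09 ± 0.10 and TKT -0.07 ± 0.11 (adjusted p from 0.487 to 0.756). All 4 genes of the non-oxidative pentose phosphate arm lay below 0, between -0.18 and -0.03, and none was called.

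The 3 calls depended on single arrays and probe sets. Without MCT1 shRNA array 3 none was called: SLC2A3 measured 0.51 (adjusted p = 0.0574), SLC2A1 0.22 (0.102) and HK2 0.39 (0.126). Without scramble array 3 the called members were SLC2A3 and PGLS, with SLC2A1 at 0.22 (adjusted p = 0.0708) and HK2 at 0.37 (0.132). HK2 was also lost without MCT1 shRNA arrays 1 or 2 or scramble array 1 (adjusted p = 0.0726, 0.104 and 0.0950), and GAPDH passed besides when scramble arrays 1 or 2 were left out. In its other probe sets SLC2A3 passed in both directions, at 0.73 ± 0.23 for 202498_s_at and -0.80 ± 0.25 for 202497_x_at (adjusted p = 0.0422 and 0.0364, against 12.1% of all probe sets called). The mean of the SLC2A3 probe sets gave 0.18 (adjusted p = 0.494), which ended the SLC2A3 call. The other HK2 probe sets measured -0.01 ± 0.18 (222305_at) and -0.14 ± 0.15 (239410_at). The mean of all 3 HK2 probe sets gave 0.09 (adjusted p = 0.628), which ended the HK2 call. SLC2A3 and SLC2A14 are near-identical copies, so which of them a probe set read is uncertain. A dim TKT probe set, 228205_at, changed by -0.61 ± 0.13 (adjusted p = 0.00276) and a dim TPI1 probe set, 210050_at, by -0.79 ± 0.24 (adjusted p = 0.0316), while the bright ones used here measured -0.07 and 0.01.

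Within SUM149PT the effects of the shRNA and of the inhibitor on HK2 were opposite in sign, and their difference passed. The shRNA effect minus the AZD3965 effect, each against its own controls, was 0.92 ± 0.20 for HK2 (limma adjusted p = 0.0047), the 1 member called of 36, against 9.52% of all genes (4.58% higher and 4.94% lower). The call was kept in each of 12 fits that left out an array, at 0.79 to 1.00, but the mean of the HK2 probe sets gave 0.14 (adjusted p = 0.613). The isomerase gene RPIA followed at -0.36 ± 0.12 (adjusted p = 0.0509). SLC2A1 measured 0.26 ± 0.10 (0.116), PFKFB3 0.13 ± 0.15, PFKFB4 0.00 ± 0.27, PGK1 -0.15 ± 0.10 and ENO2 -0.03 ± 0.21. LDHA measured -0.17 ± 0.17, LDHB -0.22 ± 0.14 and TKT -0.33 ± 0.16 (adjusted p from 0.210 to 0.586). RPIA passed besides HK2 without SUM149PT DMSO array 2, where PFKM was also called, and without scramble array 2, where PFKFB2 was also called.

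**Figure D4:**
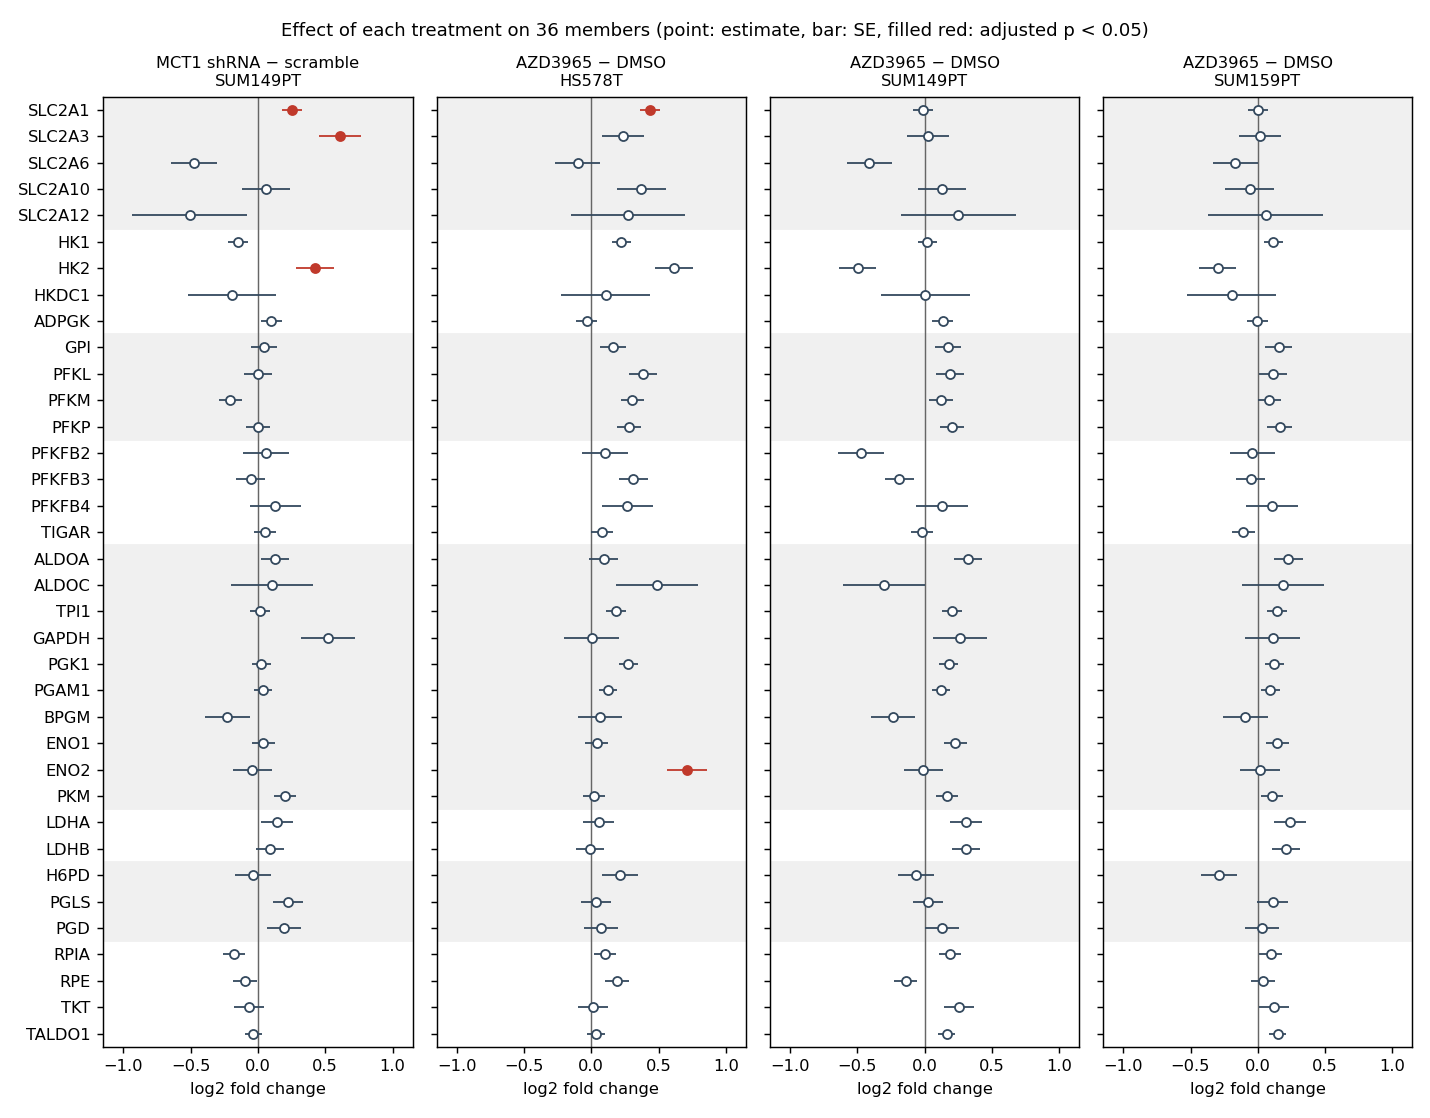
Log2 fold change with SE (x axis) of the 36 members, grouped by role in shaded bands (y axis), for the shRNA comparison and for AZD3965 in each line; filled red points had a limma adjusted p under 0.05. HK2 lies at 0.42 with the shRNA and 0.62 in HS578T, and at -0.50 in SUM149PT and -0.30 in SUM159PT, and most points of the HS578T panel lie to the right of 0.

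Differences between the untreated lines spanned a wider range, from -4.90 to 6.01 on the log2 scale over the members, than the treatment effects, from -0.51 to 0.71. The ends of the range between lines came from SLC2A3 and SLC2A10. Each was near background in a line, so the size of these differences depends on the offset of 16. Under DMSO 30 of 36 members differed between lines in the F test (77% of all genes did), so the share was close to the background. HS578T differed from SUM149PT in 26 members, 7 higher and 19 lower (64.2% of genes, 30.4% higher and 33.8% lower). It differed from SUM159PT in 26, with 8 higher and 18 lower (58%, 27.3% and 30.7%). SUM149PT and SUM159PT differed in 18, with 8 higher and 10 lower in SUM149PT (59.4%, 30% and 29.3%). Of all members, 16 were lower in HS578T than in both other lines, against 19.5% of genes, and 6 were higher than in both, against 17.1%. The comparisons of HS578T share its DMSO arrays.

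Glucose transporter genes had the widest spread between lines. SLC2A10, a transporter gene tied to arterial disease, gave 1219, 1267 and 1175 units in HS578T, 61.1, 45.4 and 84.3 in SUM149PT and 2.01, 4.28 and 3.30 in SUM159PT. No line overlapped another, and HS578T exceeded the others by 3.98 ± 0.18 and 6.01 ± 0.18 on the log2 scale (limma adjusted p = 2.63e-15 and 2.15e-18). The SUM159PT signals lay below the offset of 16, so the size of 6.01 depends on that offset. The mean of SLC2A10 over all 24 arrays, 6.32 against a filter of 5.58, includes the bright HS578T arrays. Passing the filter was therefore not independent of this comparison. SLC2A3 ran in the opposite order, at 13.3, 16.4 and 9.68 units in HS578T, 130, 124 and 130 in SUM149PT and 854, 906 and 791 in SUM159PT. HS578T was lower than SUM159PT by a difference of -4.90 ± 0.16, and SUM149PT by -2.59 ± 0.16. SLC2A1 was highest in SUM149PT, at 2021 ± 78.1 units (SD, n = 3) against 1491 ± 14.7 in SUM159PT and 1188 ± 67.8 in HS578T, and all 3 pairs differed (adjusted p from 3.16e-09 to 0.000577). SLC2A6, an intracellular family member, went from 1371 ± 49.4 in HS578T over 581 ± 139 in SUM149PT to 303 ± 54.0 in SUM159PT. SLC2A12 was dim, at 90.4 ± 25.9, 28.2 ± 24.1 and 29.1 ± 12.2 units in that order of lines. It was higher in HS578T than in both, by 1.37 ± 0.43 and 1.25 ± 0.43, and the call was lost without SUM149PT DMSO array 1 in the first pair and without HS578T DMSO array 1 or SUM159PT DMSO array 2 in the second.

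All 4 genes that phosphorylate glucose were lower in HS578T than in either SUM line. HK1, the ubiquitous hexokinase, stood at 2535 ± 147 units in HS578T, 3819 ± 199 in SUM149PT and 5410 ± 404 in SUM159PT. ADPGK, an ADP-dependent glucokinase, had the same order with 1121 ± 79.9, 1917 ± 3.41 and 2480 ± 51.8 units. HKDC1, a hexokinase paralogue, was near background in HS578T at 11.1 ± 9.27 units, against 70.7 ± 21.7 and 39.4 ± 14.4, and its call against SUM159PT was lost without HS578T DMSO array 3 or SUM159PT DMSO array 3. HK2 gave 1427 ± 265, 2221 ± 375 and 4013 ± 258 units, so SUM149PT lay below SUM159PT by a log2 difference of -0.86 ± 0.14 (adjusted p = 1.12e-05). That last order depended on the probe set: 222305_at gave 1.58 ± 0.18 and 239410_at 0.60 ± 0.15 in the opposite direction, and the mean of the HK2 probe sets 0.44.

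Phosphofructokinase genes differed by subunit. PFKM, the muscle-type subunit, stood at 1333 ± 157, 2716 ± 328 and 4500 ± 228 units in HS578T, SUM149PT and SUM159PT, and each pair was called. PFKP, the platelet-type subunit, was lower in HS578T at 6263 ± 144 units than in the SUM lines at 9825 ± 886 and 10080 ± 1068. PFKL, the liver-type subunit, was not called in any pair, with 933 ± 53.5, 829 ± 67.2 and 896 ± 66.8 units. The isomerase gene GPI followed PFKP, with 3856 ± 280, 6949 ± 356 and 7082 ± 541 units. Among regulators, PFKFB3 was lowest in SUM159PT at 877 ± 98.9 units, against 2051 ± 110 in SUM149PT and 1671 ± 165 in HS578T. PFKFB4 went from 590 ± 49.3 in HS578T over 395 ± 76.6 to 271 ± 60.2, and PFKFB2 was highest in SUM149PT at 227 ± 12.6 against 142 ± 14.6 and 127 ± 9.10. TIGAR, whose product lowers fructose 2,6-bisphosphate, was lower in HS578T at 1273 ± 68.5 units than in the others at 1851 ± 94.3 and 1930 ± 42.2. PFKFB3 between HS578T and SUM149PT, at -0.30 ± 0.11, did not pass without HS578T DMSO arrays 1 or 2 or SUM149PT DMSO arrays 1 or 3. PFKFB4 lost its call against SUM149PT without SUM149PT DMSO array 3, and between the SUM lines without SUM149PT DMSO array 2 or SUM159PT DMSO array 3.

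In the lower part of glycolysis 5 genes, ALDOA, GAPDH, ENO1, ENO2 and LDHA, were called in none of the 3 pairs on their brightest probe sets. Other probe sets did pass for ALDOA in HS578T against SUM149PT and against SUM159PT (58.8% and 51.9% of all probe sets called). For ENO1 this held between the SUM lines (53.8%). LDHA stood at 24940 ± 2472, 25150 ± 2235 and 26920 ± 2865 units in HS578T, SUM149PT and SUM159PT, and ENO2 at 464 ± 73.0, 384 ± 74.2 and 464 ± 78.6. BPGM and ALDOC spread most in this part. BPGM, which makes 2,3-bisphosphoglycerate, stood at 1821 ± 168 units in HS578T against 454 ± 108 and 535 ± 77.2. It exceeded them by 1.99 ± 0.17 and 1.74 ± 0.17 on the log2 scale (adjusted p = 1.92e-10 and 2.89e-09). ALDOC, the brain-type aldolase, went from 43.3 ± 28.0 over 138 ± 30.0 to 277 ± 46.9, and HS578T lay below the others by differences of -1.50 ± 0.30 and -2.43 ± 0.30. PGK1 was lower in HS578T at 15670 ± 612 units than in SUM149PT at 22770 ± 1160 and SUM159PT at 20660 ± 1047, as were TPI1 (14170 ± 414 against 16410 ± 1194 and 17280 ± 669) and LDHB (20170 ± 1415 against 25250 ± 2563 and 24230 ± 1765). PGAM1 was highest in SUM159PT at 13960 ± 415 units, against 11380 ± 210 and 11150 ± 446, and PKM in SUM149PT at 6267 ± 334 against 5348 ± 386 and 5369 ± 274. The smaller of these calls moved with single arrays: TPI1 against SUM149PT was lost without HS578T DMSO array 3 or SUM149PT DMSO array 2. LDHB was lost against SUM149PT without SUM149PT DMSO array 2, and against SUM159PT without HS578T DMSO array 3 or SUM159PT DMSO arrays 2 or 3. PKM was lost against HS578T without HS578T DMSO arrays 2 or 3 or SUM149PT DMSO array 1, and against SUM159PT without SUM149PT DMSO arrays 1 or 2 or SUM159PT DMSO array 3.

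In the pentose phosphate pathway the isomerase RPIA separated HS578T from both SUM lines. It gave 1378, 1121 and 1193 units in HS578T, 2898, 3401 and 3406 in SUM149PT and 2996, 2807 and 2742 in SUM159PT. HS578T lay below with no overlap, by differences of -1.38 ± 0.08 and -1.21 ± 0.08 (adjusted p = 3.98e-13 and 8.47e-12). PGLS, the lactonase of the oxidative arm, was lower in SUM159PT at 1174 ± 209 units than in HS578T at 2664 ± 155 and SUM149PT at 2585 ± 101. RPE was lowest in HS578T at 3488 ± 350 and TALDO1 highest in SUM159PT at 8856 ± 387, against 6842 ± 297 and 6966 ± 212. TKT was higher in HS578T than in SUM149PT by 0.38 ± 0.11 (adjusted p = 0.00446), and median centring ended that call. H6PD, the endoplasmic reticulum counterpart of the first enzyme, was higher in HS578T at 313 ± 39.5 units than in SUM149PT at 246 ± 12.7 and SUM159PT at 215 ± 33.7. PGD differed only between the SUM lines, at -0.33 ± 0.13 (adjusted p = 0.0293). H6PD against SUM149PT passed in 1 of 6 such fits with an array left out, namely without HS578T DMSO array 2, and PGD was lost without SUM149PT DMSO array 1 or SUM159PT DMSO arrays 1 or 2. RPE against SUM149PT was lost without HS578T DMSO array 1 or SUM149PT DMSO array 1, and between the SUM lines without SUM149PT DMSO arrays 2 or 3 or SUM159PT DMSO arrays 1 or 2.

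**Figure D5:**
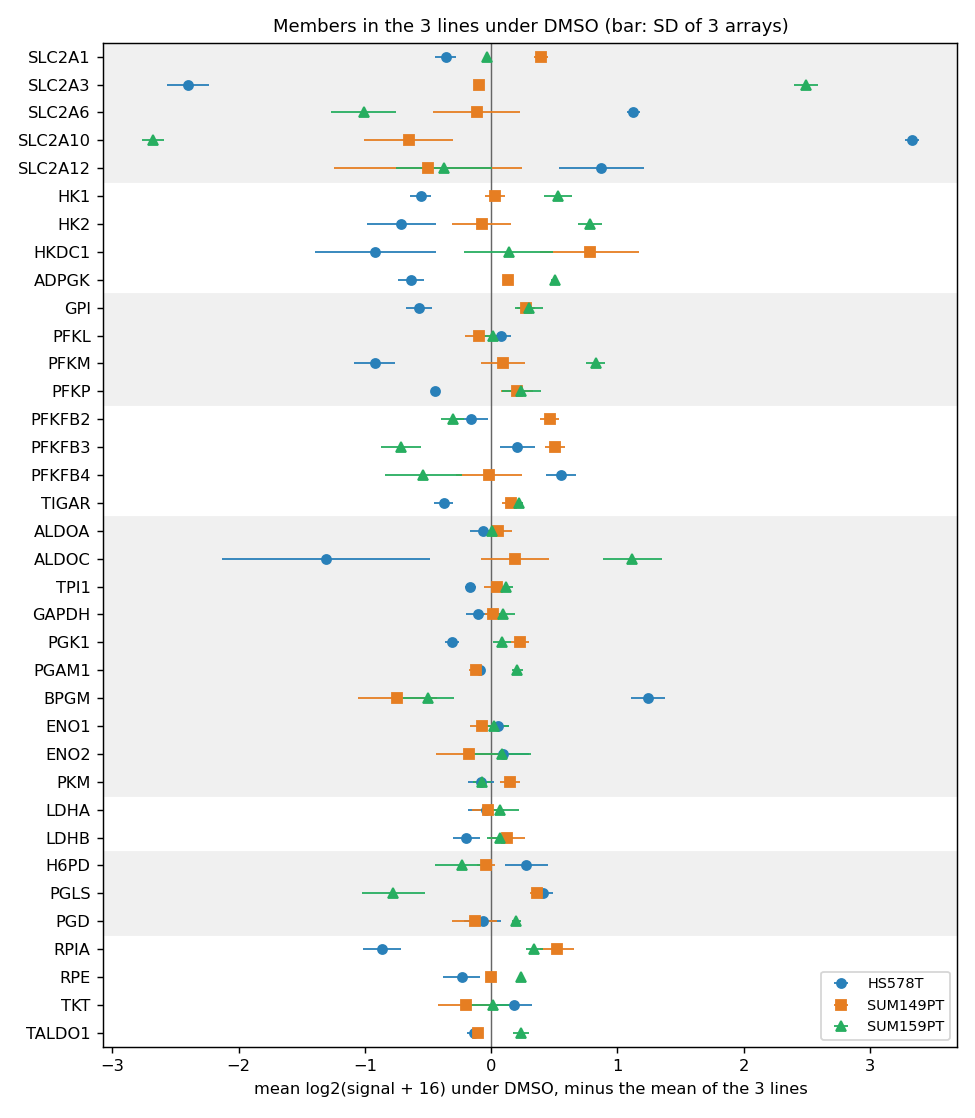
Mean log2(signal + 16) of each member in the 3 lines under DMSO, less the mean of the lines (x axis, log2 units; bars are SD of 3 arrays), grouped by role in shaded bands (y axis). SLC2A3 and SLC2A10 spread widest and in opposite order, the 4 glucose-phosphorylating genes have HS578T leftmost, and ALDOA, GAPDH, ENO1 and LDHA lie close together.

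Other genes of these pathways were followed as a list of 46, of which 40 were named in the annotation and 28 passed the filter. With MCT1 shRNA 2 of 28 rose and 1 fell, against 14.9% of all genes called, beside a median of 0.01. The phosphoglucomutase gene PGM1 rose by 0.18 ± 0.06 and the ribokinase gene RBKS by 0.50 ± 0.16, and the related gene PGM2 fell, with a change of -0.39 ± 0.09 (limma adjusted p = 0.0408, 0.0318 and 0.00251). With AZD3965 in HS578T 1 of 28 rose, PGM1 again, by 0.28 ± 0.06 (adjusted p = 0.0466), against 0.304% of all genes, and the median was -0.05. In SUM149PT and SUM159PT 0 of 28 were called, with medians of 0.03 and -0.08. PRPS1, which makes phosphoribosyl pyrophosphate from ribose 5-phosphate, was the 1 listed gene for which the shRNA and inhibitor effects differed (-0.46 ± 0.11, adjusted p = 0.0102), against 9.52% of all genes.

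SUM149PT was profiled under DMSO and with scramble shRNA, in separate experiments without a shared control, so experiment, vector, selection and vehicle cannot be told apart. Between these control groups 22 of 36 members had arrays that did not overlap, 15 higher under DMSO and 7 lower, against 42.1% of all genes (20.3% and 21.8%). SLC2A1 stood at 2021 ± 78.1 units under DMSO and 1100 ± 46.1 with scramble shRNA (SD, n = 3). SLC2A10 stood at 63.6 ± 19.6 and 2.36 ± 0.601 units, and PKM, pyruvate kinase, at 6267 ± 334 and 2834 ± 245. In the other direction PGLS stood at 2585 ± 101 and 4497 ± 944 units, with scramble array 3 the highest at 5569.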

How the data were processed

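Biotin-labelled cRNA of 24 samples was hybridised to Affymetrix arrays. The authors deposited intensity values on a linear scale. The submitters' processing notes name MAS5 as their source, with no version. All arrays had the same trimmed mean, so they were used as scaled by the authors, with no further normalization between arrays. Of 54675 probe sets, 41097 had 1 gene symbol in the platform annotation, 1801 several and 11777 none, and only the first kind was named. Symbols were updated by gene ID through a RefSeq table for 41043 of them. Each gene was read from its probe set of highest mean.

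The log2 of signal + 16 was fitted with limma 3.58.1 in R 4.3.3, with 8 group means over all 24 arrays, a mean-variance trend and 16 residual plus 6.52 prior degrees of freedom. Genes were kept where their mean reached 5.58, the 40th percentile over probe sets, which left 14141 for two-sided tests with Benjamini-Hochberg adjustment over all of them. The 3 arrays per group limit the precision. Scripts were tested on simulated data.

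The members, lists and comparisons were chosen with earlier results of these data known, so their direction is not independent evidence. Named are members called in a comparison, and SLC2A1, HK2, PFKFB3, PFKFB4, ENO2, PGK1, LDHA, LDHB and TKT in each; others appear by counts, ranges or as described after their values were seen. Alternatives were quantile normalization, median centring, offsets of 1 and 64, no filter or one at the 60th percentile, the mean of probe sets, array weights, a constant variance prior, a replicate block, only the arrays compared and leaving out each array. Replicate numbers in the labels are shared between groups and were not taken to pair arrays. Same-numbered arrays correlated at -0.131 to 0.0834 in their deviations. Between DMSO and AZD3965 arrays of SUM149PT, same-numbered ones correlated at 0.0459 to 0.0834 and differently numbered ones at -0.0853 to 0.0231. The second brightest probe set, and single tests of all probe sets, were added after seeing the data. The level of the gene targeted by the shRNA is not reported here, so the knockdown was not checked. Promoters were matched by symbol in a RefSeq table on GRCh38.p14.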

Additional observations from a re-analysis of the deposited data

Results flagged for a closer look

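A difference between groups in their response drew attention to HK2 in 2 tests. The F test in limma called the AZD3965 effect on HK2 unequal between the 3 lines (adjusted p = 0.0315). That call was lost in several fits that left out 1 array and with the replicate block (adjusted p = 0.136). The effect was not called in any single line. It was 0.62 ± 0.14 in HS578T, -0.50 ± 0.14 in SUM149PT and -0.30 ± 0.14 in SUM159PT on the log2 scale, and in each line all 3 treated arrays lay on 1 side of all 3 controls. In SUM149PT the MCT1 shRNA effect minus the AZD3965 effect was 0.92 ± 0.20 (limma adjusted p = 0.0047). Both rest on the brightest HK2 probe set. The F test gave the other HK2 probe sets, 222305_at and 239410_at, adjusted p-values of 0.962 and 0.384. Their shRNA minus AZD3965 differences were -0.23 ± 0.26 and -0.27 ± 0.22, opposite in sign and not called (adjusted p = 0.648 and 0.517). With the mean of all 3 HK2 probe sets, the first test gave an adjusted p of 0.966 and the second a difference of 0.14 (adjusted p = 0.613). Why the HK2 probe sets differ was not tested.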

How the results depend on the processing

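Limits first: 3 arrays per group, dim probe sets and the bright end of 3 AZD3965 arrays bound what could be called, and probe sets of a gene did not always agree. Where a value moved, the cause was not tested. Replicate numbers were not taken to pair the arrays. With the replicate block the members called were 1 for the shRNA, 0 for AZD3965 in HS578T, SUM149PT, SUM159PT and on average, 0 in the F test of unequal AZD3965 effects, and 1 for shRNA minus AZD3965 effect. For the lines the block gave 23 (HS578T against SUM149PT), 26 (HS578T against SUM159PT), 16 (SUM149PT against SUM159PT) and 29 (F test).

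For the shRNA (3 called) the count was 5 with quantile normalization and 1 each with median centring, the second brightest probe set and only the arrays compared. With the mean of probe sets it was 2, namely SLC2A1 and PGLS. For AZD3965 in HS578T (2 called) it was 4 with quantile normalization, 8 with array weights, 1 with only the arrays compared and 3 with median centring, where HK2 joined (0.77, adjusted p = 0.0173). It stayed at 2 with the mean of probe sets and with the second brightest, but the members were then PGK1 and ENO2, and SLC2A1 was lost (0.44, adjusted p = 0.0792, and 0.43, adjusted p = 0.680). Array weights gave 1 in SUM149PT and 5 on average (0 called in each). For shRNA minus AZD3965 effect (1 called) it was 2 with offset 64, 2 with the 60th percentile filter, 2 with a constant variance prior, and 0 with the mean of probe sets or the second brightest. In the F test of AZD3965 effects (1 called) it was 2 with quantile normalization, 2 with array weights, and 0 with the mean of probe sets, a constant variance prior, the second brightest probe set or only the arrays compared.

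Leaving out 1 array gave 0 to 5 calls for the shRNA, 0 to 3 in HS578T, 0 to 4 in SUM149PT, 0 to 0 in SUM159PT, 0 to 4 on average, 0 to 1 in the F test and 1 to 3 for shRNA minus AZD3965 effect. It gave 21 to 24, 24 to 26 and 16 to 19 for the pairs of lines in the order above, and 27 to 29 for their F test.

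Median centring moved the median of all genes to -0.12 for the shRNA, 0.14 in HS578T and -0.12 for HS578T against either SUM line. Signs turned as follows, in log2 units. With quantile normalization: for the shRNA PGK1 -0.017 and LDHB -0.016; in HS578T LDHB 0.017; in SUM149PT SLC2A1 0.0060, PGK1 -0.077 and ENO2 0.010; in SUM159PT SLC2A1 0.00099, PGK1 -0.030 and TKT -0.011. Also, PGK1 0.060 and LDHA 0.040 for shRNA minus AZD3965 effect, LDHA 0.070 for HS578T against SUM149PT and ENO2 -0.052 against SUM159PT. With median centring: PGK1 -0.089 and LDHB -0.024 for the shRNA, LDHB 0.15 in HS578T, SLC2A1 0.087 and PFKFB3 0.036 in SUM159PT, HK2 0.0018 on average, and ENO2 -0.088 for HS578T against SUM159PT. With the mean of probe sets: HK2 -0.026 and TKT -0.056 in HS578T, PGK1 -0.14 in SUM149PT, SLC2A1 0.036 and PGK1 -0.0024 in SUM159PT, PGK1 0.20 for shRNA minus AZD3965 effect, and HK2 0.44 between the SUM lines.

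With the second brightest probe set, chosen after seeing the data: SLC2A3 -0.80 and HK2 -0.013 for the shRNA, HK2 -0.0024 in HS578T, 0.22 in SUM149PT, 0.10 in SUM159PT and 0.11 on average, SLC2A1 0.073 in SUM159PT, HK2 -0.23 and PGK1 0.20 for shRNA minus AZD3965 effect, H6PD -0.16 for HS578T against SUM149PT, and HK2 1.58 and PKM -0.069 between the SUM lines. With array weights: ENO2 0.023 for the shRNA, TKT -0.057 in HS578T, and PFKFB4 0.058 and ENO2 0.086 for shRNA minus AZD3965 effect, where offset 1 gave PFKFB4 0.0010.

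Leaving out 1 array turned signs within these ranges. For the shRNA PFKFB3 ran from -0.16 to 0.012, PGK1 from -0.022 to 0.073 and ENO2 from -0.17 to 0.10. In HS578T LDHA ran from -0.021 to 0.12, LDHB from -0.066 to 0.033 and TKT from -0.046 to 0.085. In SUM149PT SLC2A1 ran from -0.073 to 0.028, PFKFB4 from -0.044 to 0.31 and ENO2 from -0.085 to 0.14. In SUM159PT SLC2A1 ran from -0.034 to 0.017, PFKFB3 from -0.17 to 0.048, PFKFB4 from -0.049 to 0.26 and ENO2 from -0.066 to 0.15. On average PFKFB3 ran from -0.013 to 0.06. For shRNA minus AZD3965 effect PFKFB4 ran from -0.18 to 0.21 and ENO2 from -0.18 to 0.10. Between lines LDHA ran from -0.082 to 0.062 (HS578T against SUM149PT), ENO2 from -0.12 to 0.13 (HS578T against SUM159PT) and LDHB from -0.025 to 0.11 (SUM149PT against SUM159PT).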
